A study of Homo sapiens with 12 samples.

Results

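The positions at which 2 antibodies placed the same protein, ARID1A, were compared region by region in RT112 cells. The members were all regions of the merged Abcam list and the merged CST list on chromosomes 1 to 22 and X, 37501 and 32932 regions, which make 70433 of the 80198 regions of the series on these chromosomes. The other 9765 were H3K4me3 regions. Members of the lists were paired where they shared at least 1 bp, and 26710 pairs joined exactly 1 Abcam region with exactly 1 CST region. All midpoints, edges and widths below are of these one-to-one pairs unless another set is named.

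RT112 cells come from a human transitional cell carcinoma of the bladder. The study counted the line among those without ARID1A mutations, and the labels name no treatment or edit in any group. The CUT&RUN experiment had 12 samples in 4 groups of 3 replicates: ARID1A with an antibody from Abcam (ab182560), ARID1A with an antibody from Cell Signaling Technology (CST, 12354), H3K4me3, and IgG as the control. The ARID1A antibodies were used at different dilutions, and all groups shared cell line, medium and kit. The lists of the authors hold 1 set of positions per antibody, merged over its replicates, without signal. No replicate error can therefore be given, the sequencing depth is unknown, no difference below was tested over samples, and antibody, dilution and library depth cannot be told apart. Shares carry 95% exact binomial intervals and medians carry 95% order-statistic intervals, both of which treat regions as independent and cover counting error over regions only. IgG regions were not analysed here.

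ARID1A is the large DNA-binding subunit of the BAF form of SWI/SNF, a complex that uses ATP to slide and evict nucleosomes at enhancers and promoters. In CUT&RUN an antibody directs a nuclease to its target in permeabilized cells, and the DNA fragments that are cut free are sequenced, so a called region is a stretch rich in fragments and not a footprint of the protein. AP-1, made of FOS and JUN family proteins, binds enhancers in many epithelial cells and is known to work together with BAF. SP and KLF factors bind GC-rich promoters.

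The 4 stretches that follow show what a closely matched pair looks like. They were the widest of 35 pairs that lay far from protein-coding TSSs, had midpoints at most 10 bp apart and held an AP-1 word (TGAGTCA, or TGACTCA on the other strand) within 25 bp of both midpoints. Each is given as 121 bases of hg38 centred on the midpoints, with the AP-1 word in capitals.
TBC1D8 intron (chr2:101124863-101124983, + strand): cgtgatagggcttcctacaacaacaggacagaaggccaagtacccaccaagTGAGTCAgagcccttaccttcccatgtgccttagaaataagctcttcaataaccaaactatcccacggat
AHR intron (chr7:17234593-17234713, + strand): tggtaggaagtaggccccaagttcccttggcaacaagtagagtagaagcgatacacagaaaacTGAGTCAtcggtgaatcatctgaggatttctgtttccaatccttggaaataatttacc
SBF2 intron (chr11:9821241-9821361, + strand): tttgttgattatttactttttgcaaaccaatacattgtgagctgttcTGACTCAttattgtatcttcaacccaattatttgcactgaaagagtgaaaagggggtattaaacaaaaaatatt
Intergenic, nearest TSS KRBOX4 (chrX:45824600-45824720, + strand): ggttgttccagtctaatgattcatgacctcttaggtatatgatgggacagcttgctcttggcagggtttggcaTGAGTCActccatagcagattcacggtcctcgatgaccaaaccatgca
The pair in the TBC1D8 intron measured 3341 bp with Abcam and 3043 bp with CST, its midpoints were 3 bp apart, and the CST region lay inside the Abcam region by 146 bp on the left and 152 bp on the right. In the AHR intron the order of widths was the opposite, 1966 bp against 2367 bp, and the edges of the CST region lay 205 bp and 196 bp outside those of Abcam. The SBF2 pair was nearly the same on every measure, with edges 22 bp and 3 bp apart and a shared over union ratio (shared bases divided by the bases covered by either region) of 0.989. The intergenic pair on chromosome X had midpoints 1.5 bp apart although the CST region (2204 bp) was much wider than the Abcam region (1171 bp). None of the 4 overlapped H3K4me3, and the nearest protein-coding TSS, that of the named gene, was 24657, 62821, 32184 and 621532 bp away in the order shown. These pairs were chosen for close midpoints and for the word, so they illustrate and support nothing.

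Over all one-to-one pairs the midpoints lay close together and had no common direction. The median distance between midpoints was 149.5 bp (147 to 152), which is small beside the median width of 1618 bp with Abcam and 1498 bp with CST. Read along the chromosome, the CST midpoint minus the Abcam midpoint had a median of -1 bp (-4 to 2) and quartiles of -151 and 148 bp. Midpoints were at most 100 bp apart in 35.8% of pairs (35.2 to 36.4%), at most 200 bp in 62.1% and at most 500 bp in 93.2%. In 141 pairs they were over 1000 bp apart, and the farthest pair, at FTH1, reached 2325 bp. Both midpoints fell within the stretch that the antibodies shared in 96.3% of pairs (96.1 to 96.5%).

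The edges showed a direction that the midpoints did not: the CST region tended to begin and end inside the Abcam region. Its left edge lay a median of 40 bp (36 to 44) to the right of the Abcam edge and its right edge 41 bp to the left (median -41, -45 to -37). Single edges varied far more than these medians, with quartiles of -133 and 253 bp on the left and -251 and 129 bp on the right. The left and the right shift of a pair were hardly related (Pearson r = 0.018 over 26710 pairs, which share libraries and peak caller). Of the pairs, 33.9% had the CST region wholly inside the Abcam region and 18.7% the reverse, while 23.6% were displaced to the right and 23.8% to the left. The Abcam region was the wider one in 60.1% of pairs (59.6 to 60.7%), and the CST over Abcam width ratio had a median of 0.934 (0.930 to 0.938) with quartiles of 0.762 and 1.12.

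**Figure D1:**
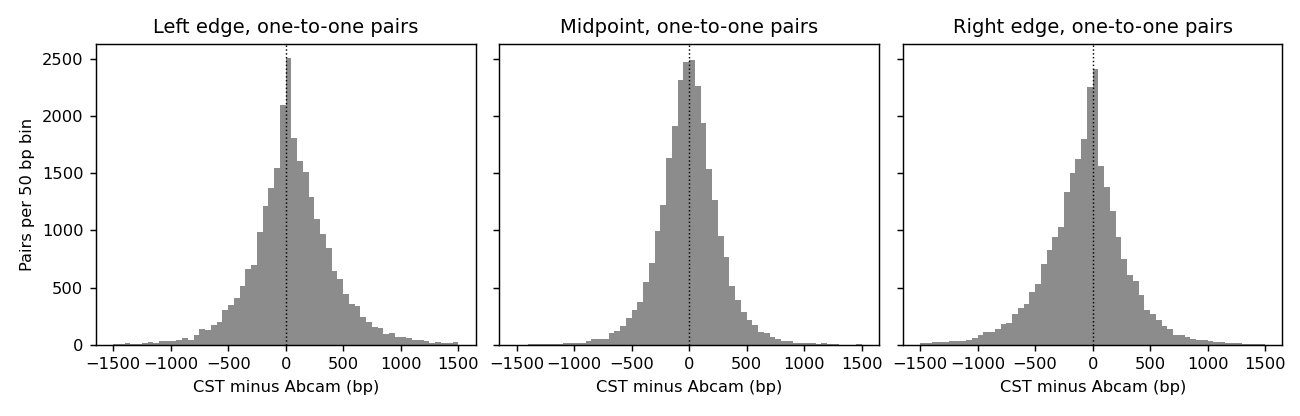
Number of one-to-one pairs (vertical axis, per 50 bp bin) against the CST minus Abcam position in bp of the left edge, the midpoint and the right edge. The midpoint histogram is centred near 0 (median -1 bp), the left edge leans to positive values (median 40 bp) and the right edge to negative values (median -41 bp).

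The shared stretch made up a median of 0.750 of the union of a pair (0.747 to 0.753). It was at least 50% of the union in 90.3% of pairs and under 10% in 26 pairs. In bases, the lists shared 43.2 Mb of a union of 74.0 Mb, which was 68.0% of the bases of the Abcam list and 80.5% of those of the CST list. The base shares were below the shares of regions paired, 76.3% for Abcam and 87.5% for CST, since a region counts as paired even where it reaches past its partner.

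Promoters with the widest matched pairs carried both antibodies over the same several kilobases. At PER2, a repressor of the circadian clock (chromosome 2), Abcam spanned 238285534 to 238291138 and CST spanned 238285167 to 238291412, with midpoints 46.5 bp apart. At TXN, which encodes thioredoxin (chromosome 9), the regions ran from 110253202 to 110258220 and from 110253131 to 110258262, with edges 71 bp and 42 bp apart. The pair at ZMYND8, a chromatin reader (chromosome 20), measured 5194 bp and 5379 bp and shared 0.966 of its union, and it was the only one of these 6 that overlapped no H3K4me3 region. KCNN4, a calcium-activated potassium channel, ITPKC, an inositol trisphosphate kinase, and SLC16A5, of the monocarboxylate transporter family, had midpoints 15 bp, 49 bp and 36.5 bp apart. These were taken by width among pairs with midpoints at most 50 bp apart.

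Among the 6 largest midpoint distances at promoters, 5 pairs were displaced, each antibody reaching past the other on opposite sides, and at ZMYND11 the CST region lay inside the Abcam region. At FTH1, which encodes the ferritin heavy chain (chromosome 11, minus strand, gene from 61959718 to 61967634), Abcam covered 61966752 to 61974225 and CST 61962639 to 61973688, so the CST region reached 4113 bp further into and along the gene. At MLLT6 (chromosome 17), Abcam covered 38699950 to 38705403, ending just past the TSS, and CST covered 38703353 to 38706633. The ZMYND11 pair, at an internal TSS of a reader of histone H3.3 (chromosome 10), had 5032 bp with Abcam and 1159 bp with CST, which lay near the left end of the Abcam region. At NFIB, a transcription factor gene, the midpoints were 1483.5 bp apart, at HNRNPF, a splicing factor gene, 1468.5 bp, and at KCTD5, a cullin adaptor gene, 1465 bp. The CST midpoint lay downstream of the Abcam midpoint at FTH1, MLLT6, NFIB and KCTD5 and upstream at ZMYND11 and HNRNPF.

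Width ratios at promoters ran from 0.210 to 3.76. The CST region was the wider one by the most at NT5C3A, a pyrimidine nucleotidase gene (688 bp with Abcam, 2586 bp with CST), at HROB, which acts in homologous recombination (579 and 2137 bp), at UBE2L5, of the ubiquitin-conjugating enzymes (502 and 1656 bp), and at RPL3, a ribosomal protein gene (1003 and 3124 bp). At HROB the midpoints were still only 87 bp apart. The Abcam region was the wider one by the most at GAB2, a signalling adaptor gene (2906 bp with Abcam, 610 bp with CST), at ZMYND11, at ARHGAP1 (2279 and 525 bp), and at PCMTD2 (2160 and 500 bp). In all 4 the CST region lay wholly inside the Abcam region. A ratio of at least 2 in favour of Abcam was found in 1140 of all pairs (4.27%) and in favour of CST in 350 (1.31%).

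Of the 27983 groups of overlapping regions, 95.5% were one to one. In 668 groups 1 Abcam region met several CST regions, in 479 groups 1 CST region met several Abcam regions, and in 126 groups several of each were chained together. The gap between neighbouring CST parts had a median of 311 bp (quartiles 161 and 614 bp) and the gap between Abcam parts 239 bp (144 and 455 bp). Split regions were wide: the single Abcam regions had a median of 3665.5 bp and the single CST regions 3265 bp. A median of 81.8% of the single Abcam region and 86.6% of the single CST region was covered by the parts. Of the Abcam regions split in the CST list 33.1% lay at promoters, against 25.3% of the narrower Abcam regions in one-to-one pairs. Among all paired Abcam regions in the widest of 4 width classes the share was 32.3%, close to that of the split ones. In the other direction 24.8% of split CST regions lay at promoters, against 25.1% of CST regions in one-to-one pairs. Among all paired CST regions in the widest class it was 30.1%.

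The widest Abcam region of all, 17813 bp over PLEC, which encodes the cytoskeletal linker plectin (chromosome 8, 143935727 to 143953539), met 4 CST regions of 9379, 1086, 3621 and 2798 bp with gaps of 707, 15 and 135 bp. At S100A10, a partner of annexin A2 (chromosome 1, 151987802 to 152002151), an Abcam region of 14350 bp met 4 CST regions, and ANXA2, the annexin gene itself (chromosome 15), had 10903 bp with Abcam against 3 CST regions with gaps of 56 and 1405 bp. TBC1D2, a RAB GTPase activator gene, had 9211 bp against 3 CST regions of 1376, 919 and 1984 bp, so that the gaps (1225 and 2979 bp) were about as long as the parts. In the other direction, a CST region of 3696 bp at CXXC5, a zinc finger gene on chromosome 5, met 3 Abcam regions with gaps of 182 and 181 bp. LMNA, the gene of lamins A and C, had 8117 bp with CST against Abcam regions of 3856 and 2658 bp, TSPAN15, a tetraspanin gene, 7699 bp against 3341 and 4081 bp, and AJUBA, a LIM protein gene, 6602 bp against 2769 and 1756 bp.

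Whether a region had a partner varied with its width. In 10 equal width classes of the Abcam list, the share with a CST partner was 44.5% (42.9 to 46.1%) in the narrowest class, up to 879 bp, and 99.0% (98.7 to 99.3%) in the widest, from 2729 bp, and it was higher in each class than in the one before. In the CST list it went from 69.0% (67.4 to 70.6%) up to 837 bp to 99.9% (99.73 to 99.98%) from 2618 bp, again higher in each class than in the one before. A wide region has more bases that can meet a partner, and width was the only rank the lists allow. Regions without a partner were seldom near misses. The median distance to the nearest region of the other list was 11991 bp for 8892 Abcam regions and 11065 bp for 4109 CST regions, and 363 and 228 of them lay under 500 bp away.

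By location, regions at promoters (touching the 1 kb on either side of a protein-coding TSS) were paired in 80.2% of Abcam regions (79.3 to 81.0%) and 90.1% of CST regions (89.4 to 90.7%). Regions at TSSs of other genes had 79.8% and 88.6%, introns 74.7% and 86.4%, intergenic positions up to 10 kb from a gene 75.7% and 85.3%, and intergenic positions further away 74.3% and 87.5%. Exonic regions away from TSSs were lowest with 72.3% (69.0 to 75.5%) and 78.9% (75.7 to 81.8%). Promoter regions were also wider, with a median of 1690 bp against 1406 bp in far intergenic space with Abcam. Among 4 equal width classes, the promoter share of Abcam was above the far intergenic share in the narrowest class (56.3% and 49.5%) and below it in the others (68.6% and 72.1%, 83.0% and 87.0%, 94.9% and 97.5%). With CST it was 77.4% and 73.0% in the narrowest class, 85.7% and 86.6% and 93.0% and 94.3% in the middle ones, and 98.0% and 99.4% in the widest. Within width classes, the promoter share was thus above the far intergenic one in the narrowest class alone. The split by width was added with the results by location known.

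**Figure D2:**
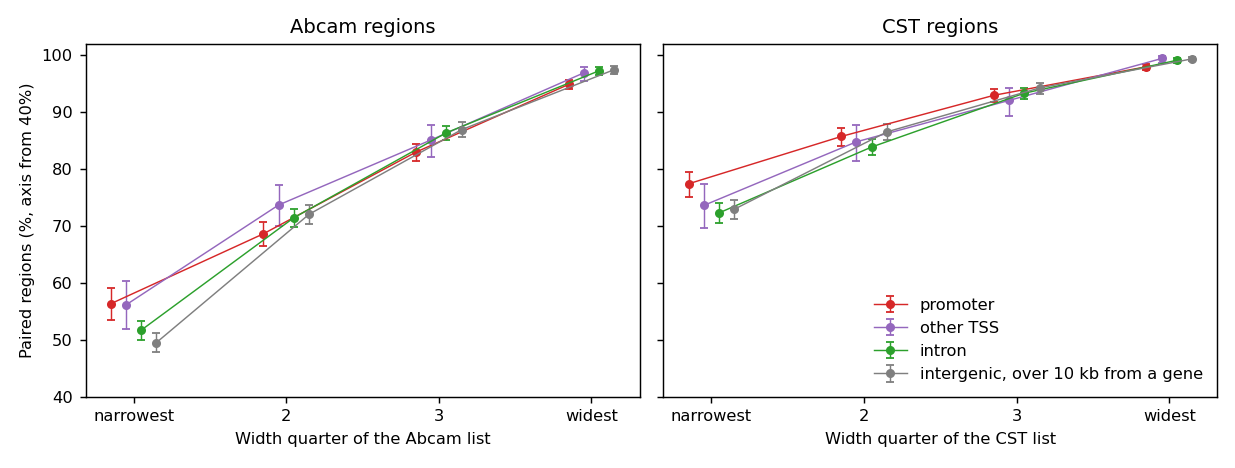
Share of regions with a partner in the other list (vertical axis, percent, from 40%) in 4 equal width classes of each list, for promoters, TSSs of other genes, introns and intergenic positions over 10 kb from a gene. Points are shares and bars are 95% exact intervals, and all classes climb with width, the Abcam promoter share from 56.3% to 94.9%.

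The class itself was nearly always the same for both members of a pair, in 97.8% of pairs (97.6 to 97.9%). Of the 597 pairs that differed, 113 were intronic with Abcam and exonic with CST, and 104 the reverse. The median midpoint distance was 168.5 bp (163.5 to 173.5) at promoters and 139 bp (135 to 144) in far intergenic space. Within 4 equal classes of union width these were 96 and 95 bp, 138.5 and 137.5 bp, and 185 and 179 bp, each with overlapping intervals, and 243 bp (230.5 to 255) and 214 bp (202 to 230) in the widest class. Pairs that overlapped H3K4me3, 22.3% of all, had a median of 176.5 bp (171 to 182.5) against 142 bp (139.5 to 144.5) in the rest, though in the 3 narrower classes of union width the values were close, 97.5 against 94.5 bp, 140 against 140.5 bp and 190 bp (181.5 to 202.5) against 179 bp (174 to 185). In the widest class they were 244 bp (232 to 257) and 216.5 bp (209.5 to 225.5).

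By chromosome, the share of Abcam regions paired lay between 73.2% (chromosome 4) and 80.1% (chromosome 21) on the autosomes and was 69.6% (66.0 to 72.9%) on X. The CST share lay between 83.2% (chromosome 22) and 89.96% (chromosome 18) on the autosomes and was 82.9% (79.7 to 85.9%) on X. Intervals wholly below the share over all chromosomes were found on 4 and X for Abcam and on 16, 20, 22 and X for CST, and wholly above it on 14 and 17 for Abcam and on 2, 5 and 10 for CST. X held the fewest Abcam regions per Mb (4.59), and they were narrower, with a median of 1356.5 bp. In the 4 width classes the Abcam share on X was 46.3%, 68.5%, 83.9% and 96.2%, against 52.3%, 71.1%, 85.5% and 96.6% on the chromosomes other than X, 16, 20 and 22, with overlapping intervals in each class.

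On chromosomes 16, 20 and 22 the CST list was large beside the Abcam list, with 0.928, 0.944 and 0.933 CST regions per Abcam region against 0.878 over all chromosomes. This was not particular to them. Chromosome 17 also had 0.928, with a CST share of 86.0% (84.1 to 87.7%), and chromosome 21 had 0.919, with 88.4%. The lower CST share of chromosomes 16, 20 and 22 came from narrow regions. Together they had 63.8% of CST regions paired in the narrowest class (60.3 to 67.2%) and 77.1% in the next (74.0 to 80.1%), against 74.0% and 85.8% on the other chromosomes apart from X, whereas in the widest class the shares were 99.3% and 98.8%. These chromosomes were set apart after their shares were seen. Where pairs existed, chromosomes differed little: the median midpoint distance ran from 130.5 bp on chromosome 18 to 163 bp on chromosome 20, and the median width ratio from 0.915 on chromosome 21 to 0.956 on chromosome 22.

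**Figure D3:**
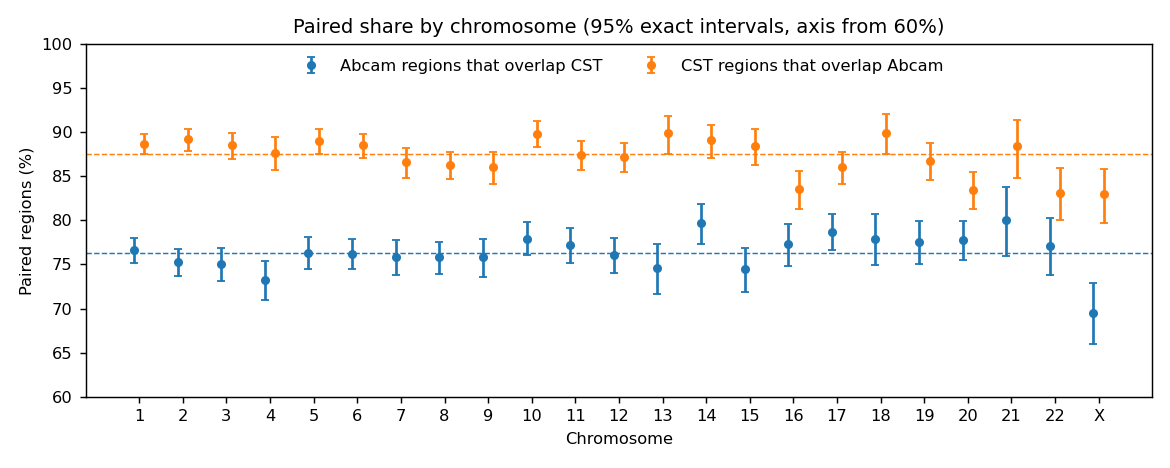
Share of regions paired (vertical axis, percent, from 60%) on chromosomes 1 to 22 and X for Abcam and CST. Points are shares, bars are 95% exact intervals and dashed lines are the shares over all chromosomes, 76.3% and 87.5%, with X lowest for both antibodies.

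Read along the direction of the gene, CST regions at promoters stopped short of Abcam regions more on the downstream side than on the upstream side. Of 6804 pairs at promoters, 916 had TSSs of both strands within the window and were left out, which left 5888. The upstream edge of CST lay a median of 43 bp (34 to 52) inside that of Abcam and the downstream edge 71 bp (median -71, -83 to -60). The CST midpoint was therefore upstream of the Abcam midpoint by a small amount (median -15.5 bp, -23 to -7), and it was the upstream one in 52.7% of pairs (51.4 to 53.9%). On genes of the plus strand the median was -22.5 bp (-32.5 to -11.5) and on the minus strand -8.75 bp (-19 to 0.5), an interval that reaches 0. The upstream and downstream edge medians were 36 bp (23 to 48) and -79.5 bp (-96 to -62) on the plus strand. On the minus strand they were 52 bp (38 to 62) and -63 bp (-77 to -46), whose intervals overlap in size. The TSS itself was covered by 90.5% of the Abcam regions and 87.8% of the CST regions of these pairs. For each pair the TSS nearest the middle of its union was used, so coverage is high there by construction. At 500 bp upstream the values were 81.2% and 76.1%, and at 500 bp downstream 78.7% and 70.2%.

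**Figure D4:**
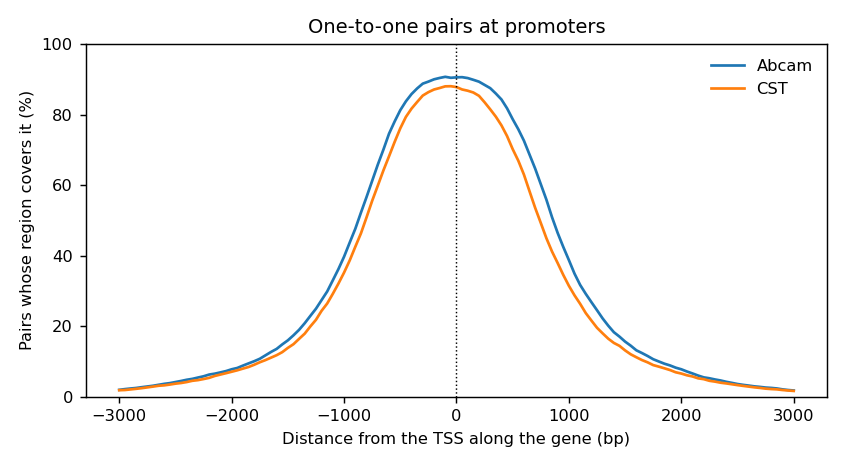
Share of 5888 one-to-one pairs at promoters whose Abcam or CST region covers each position (vertical axis, percent) against the distance from the TSS along the gene in bp, with upstream to the left. The Abcam curve lies above the CST curve, 78.7% against 70.2% at 500 bp downstream of the TSS.

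Sequence words gave a view of the positions that the pairing did not use. The AP-1 word was found in 17.3% (16.8 to 17.8%) of 200 bp windows on the midpoint of the shared stretch, in 15.3% (14.9 to 15.8%) on the Abcam midpoint, in 15.8% (15.4 to 16.2%) on the CST midpoint, and in 2.999% (2.80 to 3.21%) of windows 2 kb away outside every region. Away from promoters the share on the shared midpoint was 21.5%, and at promoters 4.80%. The same letters in reverse order (ACTGAGT) were at 3.39% on the shared midpoint and 2.59% in the flank. A single AP-1 word lay within 9696 pairs, a median of 238 bp (232.5 to 245.5) from the Abcam midpoint, 232 bp (225 to 238.5) from the CST midpoint and 210.5 bp (204.5 to 217) from the midpoint of the shared stretch. It was nearer to the CST midpoint in 50.4% of them (49.4 to 51.4%), an interval that includes 50%.

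The stretches that only 1 antibody of a pair covered were poor in the AP-1 word. There were 0.518 words per kb in 39.0 Mb of shared stretches, 0.180 in 8.98 Mb covered by Abcam only and 0.161 in 5.47 Mb covered by CST only, beside 0.154 in the flank windows. These stretches lie at the edges of a region by construction, where the word is scarce with either antibody. For the SP and KLF word (GGGCGGG) the densities were 0.536, 0.260 and 0.200 per kb, with 0.0744 in the flank, and it was at 30.6% of shared midpoints at promoters and 2.86% elsewhere. Among the other words, that of ETS factors (CCGGAAG) was at 2.62% of shared midpoints against 0.627% of flanks. A word from the CTCF motif (AGGGGGC) was at 4.56% against 2.04%. The ETS and CTCF contrasts lay mostly at promoters, with 7.61% against 0.619% for ETS and 11.1% against 2.69% for CTCF. Away from promoters they were 0.932% against 0.630% and 2.35% against 1.81%. For TEAD factors (GGAATGT), partners of YAP, the shares were 4.43% and 2.73%, and the reversed letters (TGTAAGG) gave 1.90% and 1.88%. For the pioneer factor FOXA (TGTTTAC) they were 4.45% and 2.72%. The urothelial factor GATA3 belongs to a family whose word (AGATAAG) was at 3.39% against 2.72%. NFY, a promoter factor, had its word (CCAATCA) at 2.73% against 2.06%. These low contrasts turned with location: at promoters the GATA word was at 1.02% of shared midpoints and 2.85% of flanks, TEAD at 2.07% and 2.39%, and FOXA at 2.22% and 2.43%, and away from promoters NFY was at 2.12% and 2.20%. The ratio of shared midpoints to flanks was 1.24 for GATA and 1.32 for NFY, beside 1.31 for the reversed AP-1 word. That reversed word turned with location too, with 1.75% against 2.30% at promoters and 3.95% against 2.69% away from them. The longer words were rare, and their flank shares rest on few windows. That of GRHL (AACCGGTT) was at 0.172% against 0.0115% (0.00237 to 0.0335%). The promoter word of NRF1 (CGCATGCG) was at 0.401% against 0.0191% (0.00621 to 0.0446%). GC content was 47.9% in shared stretches, 46.3% in those of Abcam only and 44.5% in those of CST only. A word is a run of letters, searched on both strands, and not a site shown to be bound.

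**Figure D5:**
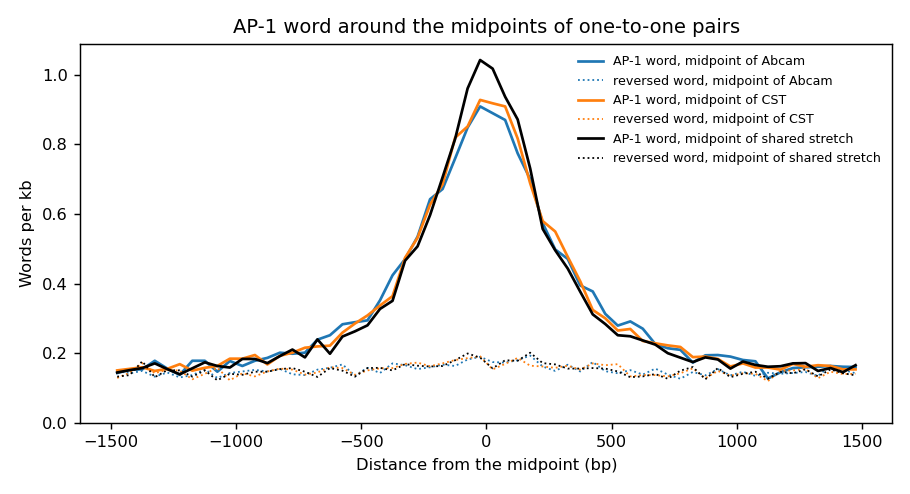
Density of the AP-1 word and of its reversed control (vertical axis, words per kb, both strands) against the distance in bp from the midpoint of the Abcam region, the CST region and their shared stretch, over one-to-one pairs. The AP-1 curves peak at the midpoints, highest for the shared stretch, and come close to the control curves beyond 1000 bp.

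Regions without a partner held the word less often than paired regions of like width. In the narrowest of 4 width classes it was within 200 bp windows on the midpoint of 23.3% of paired and 18.6% of unpaired Abcam regions, and of 22.4% of paired and 15.3% of unpaired CST regions. In the widest class the values were 9.496% and 4.46% with Abcam and 9.39% and 0 of 95 unpaired regions with CST, which allows a share of up to 3.16% by a limit of 3 counts and 3.81% by the exact interval. Over all widths, which differ between paired and unpaired regions, the shares were 14.9% (14.5 to 15.4%) and 14.2% (13.5 to 14.9%) with Abcam and 15.5% (15.04 to 15.9%) and 12.3% (11.3 to 13.4%) with CST. The reversed AP-1 word was also lower in unpaired regions, except in the narrowest class of Abcam (3.41% of paired and 3.56% of unpaired regions). In the narrowest class of CST the reversed word was at 3.53% and 3.19%. In the Abcam class of 1487 to 1995 bp it was at 3.63% (3.23 to 4.07%) and 2.28% (1.56 to 3.22%). For the AP-1 word the paired share was higher in each of the 4 width classes with both antibodies. Location moved with this: in the widest class 46.7% of unpaired and 32.3% of paired Abcam regions lay at promoters, where the word is scarce, and 52.6% and 30.1% of CST regions, and the median GC content of the windows was 52.5% and 47.5% with Abcam and 56% and 47% with CST. Outside promoters the word was at 25.6% of paired and 20.4% of unpaired Abcam regions in the narrowest class and at 12.1% (11.3 to 13.0%) and 6.15% (3.11 to 10.7%) in the widest. With CST the values outside promoters were 25.7% and 17.2% in the narrowest class, and 11.2% against 0 of 45 regions in the widest, which allows up to 6.67% by 3 counts and 7.87% by the exact interval.

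Counted by gene, overlapping regions of both antibodies lay at a promoter of 7452 of 19618 protein-coding genes (38.0%), and 7115 (36.3%) had a one-to-one pair there. Both antibodies were present without any overlap between their regions at 51 genes (0.260%), 1651 genes had Abcam only and 720 CST only. The gene lists below were chosen with results of these data known, so their counts are descriptions. Over all genes with a one-to-one pair the median midpoint distance was 172 bp and the median shared over union ratio 0.747.

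The SWI/SNF subunit genes had overlapping regions at 19 of 31 promoters, 18 of them one to one, with a median midpoint distance of 219 bp and a median shared over union ratio of 0.671. At the ARID1A gene itself the regions measured 1864 bp with Abcam and 2332 bp with CST, and the midpoints were 306 bp apart. SMARCA4, an ATPase of the complex, had midpoints 9 bp apart with the CST region inside the Abcam region, and SMARCC1, a core scaffold subunit, had 0.932 of its union shared. ACTB, the actin subunit, had midpoints 1162.5 bp apart, and ARID2, of the PBAF form, had 3447 bp with Abcam and 1661 bp with CST. SMARCD2, an accessory subunit, had 1881 bp against 2867 bp. PBRM1, SMARCC2 and DPF1 had an Abcam region only and SS18L1 a CST region only.

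Of the class I PI3K genes with PIK3IP1, 5 of 10 had a one-to-one pair. At PIK3R3, a regulatory subunit gene (chromosome 1, minus strand), Abcam covered 46131756 to 46133759 and CST 46132167 to 46133922, with midpoints 287 bp apart and 0.735 of the union shared. PIK3R1 and PIK3R2, which also encode regulatory subunits, had midpoints 260 and 628.5 bp apart. The catalytic subunit genes PIK3CA and PIK3CB had 613 and 257.5 bp. All 5 distances were above the median of all genes (172 bp). These pairs were wide, with unions of 2158 to 2789 bp. Promoter pairs had medians of 185 bp at unions of 1818 to 2335 bp and 243 bp at wider ones. Each of the 5 distances was also above the median for its union width. The luminal urothelial list below had the same median distance as the PI3K list, 287 bp. At PIK3IP1, a negative regulator of PI3K (chromosome 22), the CST region over the promoter had no partner, while the pairs in its intron and upstream of it had midpoints 53 and 63 bp apart. The PRC2 subunit genes had a pair at 9 of 12 promoters with a median distance of 107.5 bp. EED, the H3K27me3 reader subunit, shared 0.907 of its union, RBBP4, a histone chaperone, 0.576, and JARID2, an accessory subunit, 0.529, while EZH2, the methyltransferase, had midpoints 411.5 bp apart.

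Genes of AP-1 and TEAD factors had overlapping regions at 19 of 24 promoters, 17 of them one to one, with a median shared over union ratio of 0.872. ATF7 had midpoints 5.5 bp apart and ATF2 9 bp, and FOS, with 2778 and 2734 bp, shared 0.957 of its union. FOSL2 (3401 and 3215 bp) and VGLL4, a TEAD cofactor gene (2875 and 3331 bp), shared 0.942 and 0.863. BATF had 3938 bp with Abcam and 2354 bp with CST, and FOSB had the farthest midpoints of the list, 815.5 bp apart.

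The luminal urothelial marker genes had overlapping regions at 14 of 15 promoters, and OVOL1 had an Abcam region only. This list was chosen with results known and includes genes of epithelia at large, so it does not test the labelled cell type. KRT8 and KRT18, keratins of simple epithelia, share 1 pair of regions of 6288 and 5846 bp. KRT19, a further such keratin, had 5678 and 6896 bp with midpoints 666 bp apart. ELF3, an epithelial transcription factor gene, shared 0.966 of its union and UPK2, a uroplakin gene, 0.872. No promoter of 5 hepatocyte, 4 immune and 4 skeletal muscle marker genes had overlapping regions, and of these 13 genes CD14 alone had a region, with Abcam. None of the 13 had an H3K4me3 region at its promoter, against 14 of the 15 luminal genes. Of all protein-coding genes, 10409 of 19618 had one.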

How the data were processed

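RT112 cells were profiled by CUT&RUN with 2 ARID1A antibodies, H3K4me3 and IgG, in 3 replicates each. Libraries were prepared in randomized batches, their makeup not given in the sources used here, and whether replicates were separate cultures is not stated. The authors trimmed reads with cutadapt, aligned them with bwa-mem2, removed duplicates (Picard) and reads without a unique position (samtools), scaled replicates by spike-in reads, called regions with SEACR and merged the replicate regions by bedtools. The submitters' processing notes name the build hg38, and versions are not given in the sources used here. SEACR ran in relaxed mode by the methods and in stringent mode by the list names, and the methods state that a small top fraction of the peaks was kept, so the retention rule is given but the signal it corresponds to in each list is not. The deposited lists hold chromosome, start and end in 3 columns and no signal, and positions are printed counting from 1.

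Overlaps were computed with Python 3.11.15, numpy 2.4.6 and pandas 2.3.3, exact intervals with scipy 1.17.1, figures with matplotlib 3.10.9. Sequence was read from hg38 with an index from samtools 1.23.1, and genes from GENCODE 44. A region took the first class that applied: promoter, TSS of another gene type, then by midpoint exon, intron, or intergenic within or beyond 10 kb of a gene. Pairs were named by the nearest protein-coding TSS. Named genes were PIK3R3 and PIK3IP1, the 6 widest promoter pairs with midpoints at most 50 bp apart, the 6 with the farthest midpoints, the 4 with the highest and the 4 with the lowest width ratio, the 4 most split groups in each direction, and up to 3 members of each list with the widest union. List members named beside these were chosen after their values were seen. The members, lists and words were chosen with earlier results of these data known. The pairing was tested on simulated data. Alternatives were an overlap of 50% of both regions, regions of at least 200 bp or of at least median width, joining of regions under 500 bp apart, promoter windows of 500 bp and 3 kb, classes by midpoint, the most upstream TSS and windows of 100 bp.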

Additional observations from a re-analysis of the deposited data

How the results depend on the processing

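Of 51 alternative values over 16 results, 31 moved by less than their interval or, for counts, by less than 1.5 times, 20 moved by more, and none changed sign. With an overlap of at least 50% of both regions, 68.1% of Abcam and 77.5% of CST regions were paired (60.3% and 72.2% on X), the median midpoint distance was 146 bp, the left and right edge medians were 31 and -33 bp, the width ratio was 0.943, and there were 0 splits in either direction, which this overlap rule all but excludes by construction. With only the wider regions of each list (from its median width), 67.8% and 77.7% were paired, fewer because partners were removed, the distance was 171 bp, the ratio 0.951, and 221 Abcam and 161 CST regions were split. Joining of regions under 500 bp apart gave a distance of 154 bp and 307 split CST regions. A promoter window of 3 kb gave a paired share of 88.9% for CST promoter regions. Windows of 100 bp held the AP-1 word at 8.94% of shared midpoints and 1.49% of flanks, against 17.3% and 2.999% with 200 bp. A shorter window holds fewer words by construction. The cause of shifts in position was not tested. No paired analysis was possible because the lists are merged over replicates, and for the same reason no replicate could be left out. The authors kept the top fraction of peaks, and neither the depth nor the signal at that limit is in the lists, so a site missing from 1 list can be just below it. Reads that map to several places were removed, which can leave repeats without regions.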

Other observations

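Edges that fell on exactly the same base were more frequent than edges a few bases apart. The left edges coincided in 291 pairs and the right edges in 332. Each single distance between 5 and 25 bp, with the directions counted apart, held a median of 45.5 pairs for either edge, 6.40 and 7.30 times fewer. Distances of exactly 1 bp were found in 226 and 228 pairs, with both directions counted together, so these counts are not on the scale of that median. The same was seen against H3K4me3: 24 left and 31 right edges of Abcam regions and 26 and 21 of CST regions coincided with an H3K4me3 edge, against medians of 4 and 3 per single distance. Both edges coincided in 6 pairs, among them those at CNOT6L, a deadenylase subunit gene (chromosome 4, 77819325 to 77820625), and OS9, a gene of endoplasmic reticulum quality control (chromosome 12, 57693015 to 57694771). These counts were made after the data were seen.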
